A study of Mus musculus with 16 samples.

Results

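Subunit genes of respiratory complexes II, III, IV and V that lie in the nucleus, with cytochrome c, were followed through the hearts of old multiparous and virgin mice. The set holds 41 of the 55487 genes in the count tables: 4 subunits of complex II, 9 of complex III, cytochrome c itself, 12 subunits of complex IV and 15 of complex V. Members were found by gene symbol alone. Of these, 40 stood under their own symbol and 1, Atp5f1, under its newer symbol Atp5pb. The symbol Atp5o had 2 entries, and the second, an overlapping record, had a count of 0 in all libraries and was not used. All 41 had enough counts to be tested.

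The 8 multiparous mice had gone through more than 3 pregnancies and the 8 virgin mice through none. Both groups were C57Bl/6J mice, 24 months old, with no intervention. RNA came from the middle of the left ventricle, after perfusion of the hearts with cold PBS, so each library mixes muscle with all other cells of the wall. Ribosomal RNA was depleted and the stranded total RNA libraries were read as pairs of 150 bases. In the library names the multiparous hearts carry the codes P (4 libraries) and MP (4 libraries), and the virgin hearts the code AA. The labels do not say what the codes mean, so parity and a difference tied to the codes cannot be told apart.

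In oxidative phosphorylation, complex II passes electrons from succinate to ubiquinone, complex III passes them on to cytochrome c, and complex IV hands them to oxygen. Complexes III and IV pump protons across the inner mitochondrial membrane, and complex V, the ATP synthase, lets them flow back while making ATP. Complex II is built from nuclear genes alone, whereas complexes III, IV and V each also contain subunits encoded in mitochondrial DNA. Heart muscle draws nearly all of its ATP from this chain and is packed with mitochondria. Transcription of the nuclear genes is known to involve NRF1, the ETS factor GABP (called NRF2 in older work), YY1 and the estrogen-related receptors.

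The promoters of these genes show which of those factors' letters stand near their start sites. A promoter was taken from RefSeq (GRCm38.p6) as the 250 bases before and 50 bases after the start of the transcript, and 32 of the 41 genes had an entry. The NRF1 motif GCATGCGC, searched on both strands, stood in 7 of the 32 (21.9%), against 3.05% of the promoters of 27025 genes. The ETS motif CCGGAAGT stood in 4 of 32 (12.5%), against 4.31% of all genes. AAGATGGC, for YY1, stood in 3 (9.38%), against 3.19%. TCAAGGTCA, for the estrogen-related receptors, stood in 2 (6.25%), against 0.466%. The TATA box letters TATAAA also stood in 2 (6.25%), against 15.7% of all genes. GCATGCGC and its reverse complement can be read in overlapping positions, as they were in the promoters of Uqcrc1, Atp5g2 and Atp5k. A match says only that the letters are there, and no binding was measured. Below, 1 promoter per complex and that of cytochrome c are printed 5′ to 3′ on the strand of the gene, with the matched motif in capitals. They were picked because each holds one of the searched motifs. Position 1 is the first base of the transcript and the base before it is -1. The Sdhb promoter (chr4:140961021-140961320, plus strand) has an NRF1 match that begins at -54. The Uqcr11 promoter (chr10:80406772-80407071, minus strand) has an ETS match at -66 and an NRF1 match at -4. The Cycs promoter (chr6:50566520-50566819, minus strand) has an NRF1 match at -60. The Cox8a promoter (chr19:7217567-7217866, minus strand) has ETS matches at -6 and 32, both in reverse complement. The Atp5g3 promoter (chr2:73911277-73911576, minus strand) has an estrogen-related receptor match at -52, also in reverse complement.
Sdhb: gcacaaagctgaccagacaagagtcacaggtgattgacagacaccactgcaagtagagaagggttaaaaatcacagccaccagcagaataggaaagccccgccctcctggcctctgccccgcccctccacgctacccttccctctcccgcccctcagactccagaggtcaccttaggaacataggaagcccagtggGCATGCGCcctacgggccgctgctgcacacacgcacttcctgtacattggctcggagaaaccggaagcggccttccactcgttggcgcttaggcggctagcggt
Uqcr11: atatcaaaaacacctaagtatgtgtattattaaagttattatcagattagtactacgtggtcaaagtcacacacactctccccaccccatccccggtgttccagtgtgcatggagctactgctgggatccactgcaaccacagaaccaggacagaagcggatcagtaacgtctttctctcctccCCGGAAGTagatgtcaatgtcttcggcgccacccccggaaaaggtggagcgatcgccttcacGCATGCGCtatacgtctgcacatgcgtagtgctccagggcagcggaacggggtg
Cycs: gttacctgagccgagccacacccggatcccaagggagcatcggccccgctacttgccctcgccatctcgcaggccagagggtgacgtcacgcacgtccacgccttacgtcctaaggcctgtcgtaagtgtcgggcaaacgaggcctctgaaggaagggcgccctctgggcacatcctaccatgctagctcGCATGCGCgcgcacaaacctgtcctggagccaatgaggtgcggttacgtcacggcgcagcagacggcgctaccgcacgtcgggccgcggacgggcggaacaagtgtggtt
Cox8a: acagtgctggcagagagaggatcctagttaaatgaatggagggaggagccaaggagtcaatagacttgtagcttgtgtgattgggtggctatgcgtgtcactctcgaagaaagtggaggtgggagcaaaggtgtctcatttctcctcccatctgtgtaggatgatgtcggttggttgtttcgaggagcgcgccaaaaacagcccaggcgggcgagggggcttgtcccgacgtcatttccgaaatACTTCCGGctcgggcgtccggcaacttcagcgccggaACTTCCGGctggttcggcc
Atp5g3: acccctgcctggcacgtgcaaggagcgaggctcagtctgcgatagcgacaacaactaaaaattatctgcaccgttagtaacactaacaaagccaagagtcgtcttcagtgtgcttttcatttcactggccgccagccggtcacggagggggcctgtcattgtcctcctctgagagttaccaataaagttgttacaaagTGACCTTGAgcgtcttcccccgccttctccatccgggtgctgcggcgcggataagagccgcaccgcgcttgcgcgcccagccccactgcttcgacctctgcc

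No subunit gene passed the test for a difference between multiparous and virgin hearts, although 40 of the 41 had a lower mean in the multiparous hearts with TMM scaling, and 30 with either of 2 other scalings. Over all 17813 genes tested, 51.4% had a lower mean in the multiparous hearts with TMM scaling, and 36.4% and 39.4% with the other 2. With TMM scaling, 0.0112% of all genes were called at an adjusted p under 0.05 by edgeR's quasi-likelihood test. The exception among the members with TMM scaling was Cox6a2, the heart and muscle form of complex IV subunit 6a, with a higher mean. The median log2 fold change of the 41 genes was -0.06, that is 4.26% lower, against -0.003 over all genes tested. Single genes ran from -0.13 for Uqcrc2 to 0.04 for Cox6a2. Adjusted p-values lay between 0.475 and 0.9995 in edgeR. DESeq2, which called 0.73% of all genes tested, and limma voom called no member either. At an unadjusted p under 0.05, 3 members were lower (Uqcrc2, Atp5l and Atp5b), against 4.09% of all genes tested, and none was higher.

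The differences were small beside the spread between hearts. For 39 of the 41 genes the difference of the means was smaller than 1 SD of the virgin libraries. The multiparous and the virgin values overlapped for every member, and 0.0337% of all genes tested did not overlap. The coefficient of variation over the 16 libraries had a median of 7.40% and ran from 4.81% for Atp5g2 to 14.0% for Cox6c. Each taken alone and with TMM scaling, the 95% intervals of the fold changes reached at most a fall of 17.1% (Atp5k) and a rise of 15.5% (Cox6a2). The intervals were not adjusted for the number of genes, so they set no joint limit for the 41. In tissue RNA, fewer muscle cells and less of a transcript per cell cannot be told apart. Since the labels give the number of mice but say no more of the animal behind each library, p-values speak of the spread among these 16 libraries.

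**Figure D1:**
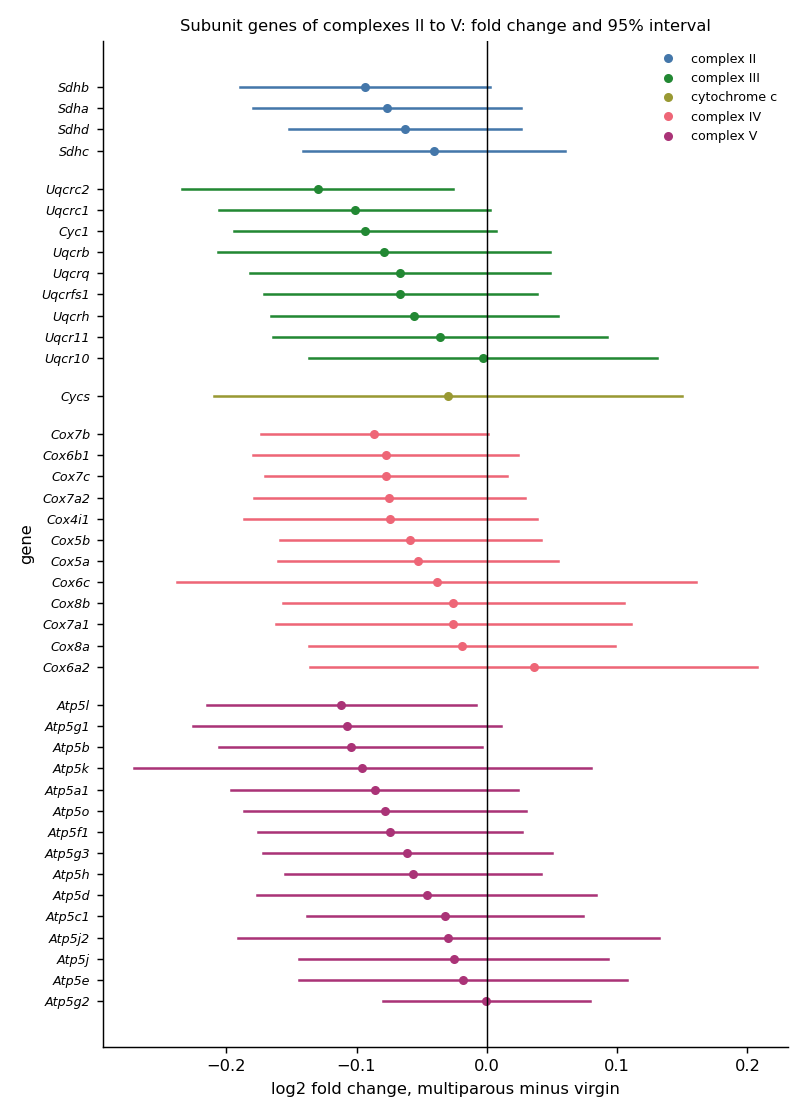
Log2 fold change, multiparous minus virgin, of the 41 genes (points) with its 95% interval from edgeR (lines), grouped by complex and ordered within it. All points but that of Cox6a2 lie left of 0, and the intervals of 3 genes, Uqcrc2, Atp5l and Atp5b, lie wholly below 0 before adjustment.

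Complex II, succinate dehydrogenase, had a lower mean for each of its 4 subunit genes, with a median log2 fold change of -0.07. The summed level of the 4 genes had a lowest, median and highest value of 2046, 2113 and 2299 TMM-scaled CPM in the multiparous hearts and of 1990, 2279 and 2411 CPM in the virgin hearts. The groups overlapped over most of that range, and the lowest sum of all was that of a virgin heart. Sdhb, the iron-sulfur subunit, had a lowest, median and highest level of 403.9, 432.1 and 483.4 CPM in multiparous hearts, against 416.4, 475.0 and 499.2 CPM in virgin hearts. Multiparous 6 and 7 lay below every virgin heart, 3 virgin hearts lay above every multiparous one, and the other hearts overlapped. Its log2 fold change was -0.09 (SE 0.05, adjusted p = 0.632). Sdha, the flavoprotein that oxidises succinate, had 1054, 1135 and 1230 CPM in multiparous hearts, against 1068, 1218 and 1301 CPM in virgin hearts. Here multiparous 6 and 8 were the only multiparous hearts below the lowest virgin value. The fold change of Sdha was -0.08 (SE 0.05, adjusted p = 0.752). Sdhc, one of the membrane anchors that hold the heme, had the smallest difference of the complex, with 300.6, 329.2 and 342.6 CPM in multiparous hearts against 280.6, 337.9 and 362.2 CPM in virgin hearts. Virgin 1 was lowest of all 16, and the log2 fold change was -0.04 (SE 0.05, adjusted p = 0.883). The other anchor, Sdhd, averaged 242.7 ± 11.2 CPM in multiparous hearts and 253.5 ± 16.2 CPM in virgin hearts (SD, n = 8 each).

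Complex III had 9 of 9 genes with a lower mean in the multiparous hearts, and their log2 fold changes had a median of -0.07. The 9 levels summed to 3421 ± 165 CPM in multiparous hearts and 3636 ± 248 CPM in virgin hearts (SD, n = 8 each), and the sums of the groups overlapped. Uqcrc2, one of the core proteins that face the matrix, had the smallest p of all members. Its lowest, median and highest levels were 635.3, 700.7 and 804.6 CPM in multiparous hearts and 698.4, 781.7 and 834.6 CPM in virgin hearts. Of the multiparous hearts, 4 lay below every virgin heart, and multiparous 3 stood apart from the other multiparous hearts at the top of their range. In log2 the difference was -0.13 (SE 0.05), with a 95% interval of -0.23 to -0.03 and an adjusted p of 0.475 in edgeR. Uqcrc2 lies on chromosome 7 (120635176 to 120659524, plus strand, GENCODE M21 on GRCm38), and 504 of its exon bases overlap Pdzd9 on the opposite strand. The strand setting of the counting is not given in the sources used here, so reads there cannot be assigned with certainty. Uqcrc1, the other core protein, had 773.1, 818.5 and 887.1 CPM in multiparous hearts against 776.7, 906.8 and 955.9 CPM in virgin hearts. All 8 multiparous hearts lay below the virgin mean, 6 virgin hearts lay above every multiparous one, and virgin 1 and 7 lay among the multiparous hearts. Its log2 fold change was -0.10 (SE 0.05, adjusted p = 0.631).

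The electron carriers of complex III were next. Cyc1, cytochrome c1, averaged 418.2 ± 17.7 CPM in multiparous hearts and 446.1 ± 35.3 CPM in virgin hearts, with a log2 fold change of -0.09 and an adjusted p of 0.652. Uqcrfs1, the Rieske iron-sulfur protein, averaged 455.3 ± 22.2 CPM in multiparous hearts and 476.7 ± 38.8 CPM in virgin hearts, with a log2 fold change of -0.07. Both means were lower by less than 1 SD of the virgin hearts. Uqcr10, a small subunit near cytochrome c1, was nearest to no difference, with 109.3, 126.2 and 138.3 CPM in multiparous hearts against 102.1, 127.4 and 139.8 CPM in virgin hearts. The multiparous range lay inside the virgin range, and the log2 fold change was -0.003 (SE 0.06, adjusted p = 0.996). The other small subunits, Uqcrb, Uqcrq, Uqcrh and Uqcr11, had log2 fold changes between -0.08 and -0.04.

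Cytochrome c, the soluble carrier between complexes III and IV, was among the most variable members. Cycs had a lowest, median and highest level of 171.0, 217.3 and 278.5 CPM in multiparous hearts and of 205.1, 224.2 and 258.6 CPM in virgin hearts. Multiparous 3 and 4 lay above every virgin heart and multiparous 7 below every virgin heart, so the virgin values lay wholly within the multiparous range. The log2 fold change was -0.03 (SE 0.09, adjusted p = 0.966). By library code the mean was 243 ± 38.1 CPM in MP-coded hearts, 209 ± 26.4 CPM in P-coded hearts (SD, n = 4 each) and 230.8 ± 22.5 CPM in virgin hearts (SD, n = 8). Cycs has many processed copies in the genome: 28.5% of the 50-base stretches of its transcript occur in other annotated genes, 76 genes in all, so its count is uncertain. For Cycs and the other genes, such stretches were taken from the longest coding transcript.

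Complex IV, cytochrome c oxidase, had 11 of 12 nuclear genes with a lower mean in the multiparous hearts, and the 12 log2 fold changes had a median of -0.06. Summed levels were 4103 ± 270 CPM in multiparous hearts and 4260 ± 264 CPM in virgin hearts (SD, n = 8 each), a difference smaller than 1 SD of either group. Cox7b, a small membrane subunit on the X chromosome, had 372.1, 397.2 and 420.7 CPM in multiparous hearts, against 373.6, 424.6 and 450.1 CPM in virgin hearts. Most virgin hearts, 5 of 8, lay above every multiparous heart, while virgin 7 lay near the bottom. The log2 fold change was -0.09 (SE 0.04, adjusted p = 0.624). Cox7c, another small membrane subunit, had 366.3, 392.5 and 433.8 CPM in multiparous hearts and 363.4, 423.8 and 438.7 CPM in virgin hearts. Its lowest value of all was that of virgin 7, and its log2 fold change was -0.08 (SE 0.04, adjusted p = 0.709). Of its 50-base stretches 27.9% recur in other annotated genes. Cox8a, the widely expressed form of subunit 8, was nearest to no difference, with 55.1, 67.4 and 74.0 CPM in multiparous hearts against 56.9, 67.3 and 72.2 CPM in virgin hearts. The medians nearly coincided, and the log2 fold change was -0.02 (SE 0.06, adjusted p = 0.966).

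Cox6a2 was the only member with a higher mean in the multiparous hearts with TMM scaling. Its lowest, median and highest levels were 281.4, 343.9 and 393.7 CPM in multiparous hearts and 288.4, 340.2 and 439.2 CPM in virgin hearts. The lowest heart was multiparous 6 and the highest virgin 8, which stood far above the other virgin hearts. Between groups the log2 difference was 0.04 (SE 0.08), its 95% interval ran from -0.14 to 0.21, and the adjusted p was 0.956. It stayed above 0 in each of 26 alternative fits and passed in none. Single hearts moved it widely: with 1 library left out it ran from 0.0057 without virgin 6 to 0.0987 without virgin 8. Cox6c, whose count over the 16 libraries varied most, averaged 240.7 ± 41.1 CPM in multiparous hearts and 247.1 ± 28.0 CPM in virgin hearts, and its highest and its lowest heart were both multiparous. The other subunits, Cox4i1, Cox5a, Cox5b, Cox6b1, Cox7a1, Cox7a2 and Cox8b, had log2 fold changes between -0.08 and -0.03. Cox4i1 is the main form of the largest nuclear subunit, Cox5b binds zinc and Cox6b1 faces cytochrome c.

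Complex V, the ATP synthase, had 15 of 15 genes with a lower mean in the multiparous hearts, the median of their log2 fold changes being -0.06. Their summed level had a lowest, median and highest value of 11147, 11641 and 12605 CPM in multiparous hearts and of 11210, 12549 and 13209 CPM in virgin hearts. Both groups began at nearly the same sum, and the virgin hearts reached higher. In the catalytic head, Atp5b, the beta subunit that makes ATP, had 3697, 3952 and 4165 CPM in multiparous hearts, against 3939, 4235 and 4561 CPM in virgin hearts. All 8 multiparous hearts lay below the virgin mean and 4 of them below every virgin heart, while 5 virgin hearts lay above every multiparous one. The log2 fold change was -0.10 (SE 0.05), with an adjusted p of 0.601 in edgeR. Atp5a1, the alpha subunit, averaged 3234 ± 152 CPM in multiparous hearts and 3433 ± 253 CPM in virgin hearts, with a log2 fold change of -0.09 (adjusted p = 0.732). Of the central stalk genes, Atp5c1 (gamma), Atp5d (delta) and Atp5e (epsilon) had smaller differences, at -0.03, -0.05 and -0.02 in log2.

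In the membrane part and side stalk of the synthase, Atp5l had the smallest p. Atp5l encodes subunit g, one of the small subunits with a part in joining synthases into dimers. Its lowest, median and highest levels were 204.8, 219.9 and 234.4 CPM in multiparous hearts and 203.8, 233.9 and 266.2 CPM in virgin hearts. The virgin hearts were wider spread, with 4 above every multiparous heart and virgin 1 below all. The log2 fold change was -0.11 (SE 0.05, adjusted p = 0.571). The count of Atp5l is uncertain, since 84.9% of the 50-base stretches of its transcript recur in other annotated genes, most of all in Gm10221. Atp5k (subunit e) had a log2 fold change of -0.10, whose interval of -0.27 to 0.08 reached lowest, at a level of 33.6 ± 4.08 CPM in multiparous hearts and 35.9 ± 4.68 CPM in virgin hearts. The side stalk genes Atp5f1 (subunit b), Atp5h (d), Atp5j (F6) and Atp5o, which holds the stalk to the head, had log2 fold changes from -0.08 to -0.03, and Atp5j2 (f), a further small membrane subunit, had -0.03. For Atp5o, Atp5h and Atp5f1, 50.3%, 47.9% and 38.7% of the 50-base stretches recur in other annotated genes. For Atp5o the record that shared most was its own second entry, the one with no counts, which held 194 of the 397 recurring stretches.

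The c-ring, the rotor through which protons pass, is encoded by 3 genes that yield the same mature protein with different import sequences. Atp5g1 had 495.6, 524.6 and 570.8 CPM in multiparous hearts, against 464.5, 574.6 and 633.3 CPM in virgin hearts. Multiparous values lay within the virgin range, which reached lower and higher. Its log2 fold change was -0.11 (SE 0.06, adjusted p = 0.669). Atp5g3 averaged 575.1 ± 40.2 CPM in multiparous hearts and 599.9 ± 45.1 CPM in virgin hearts, with a log2 fold change of -0.06. Atp5g2 had the steadiest level of all members and the smallest difference, with 103.9, 111.2 and 118.3 CPM in multiparous hearts and 101.6, 112.8 and 120.7 CPM in virgin hearts. In log2 the groups differed by -0.0003 (SE 0.04), within a 95% interval of -0.08 to 0.08 (adjusted p = 0.9995).

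**Figure D2:**
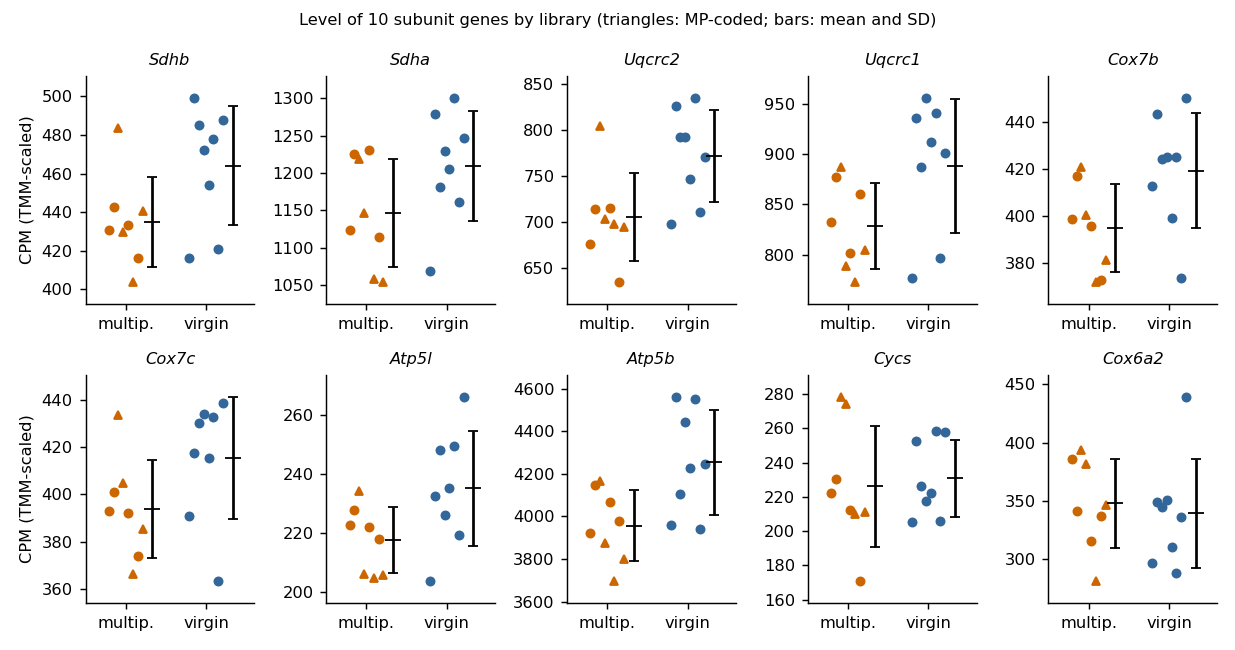
TMM-scaled CPM of 10 subunit genes in each library, multiparous at the left and virgin at the right of every panel, with mean and SD (bars, n = 8) and triangles for MP-coded hearts. The vertical axes do not start at 0, and the groups overlap in every panel.

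Levels could be compared between genes only per length, as CPM per kilobase of the shortest principal transcript in GENCODE M21. On this scale, over all 16 hearts, Atp5b was highest with 2143 CPM per kilobase, followed by Atp5a1 with 1349 and Cox4i1 with 1027. The lowest was Cycs with 73.2. Within complexes, levels ran from 103 to 406 CPM per kilobase in complex II, from 284 to 550 in complex III, from 121 to 1027 in complex IV and from 93.6 to 2143 in complex V. These orders depend on the length used. Per kilobase of all exons, Atp5a1 led with 1063 before Atp5b with 969, and Cox6c went to the last place of the 12 complex IV genes instead of the eighth.

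Muscle and widely expressed forms of the same subunit were set against each other within each library, which removes the scaling between libraries. The muscle forms prevailed in both groups. Cox6a2 made up 90.7 ± 1.07% of the 6a transcripts per length in multiparous hearts and 90.4 ± 1.2% in virgin hearts, the rest being Cox6a1. Cox8b made up 86.9 ± 1.10% of the 8a and 8b transcripts in multiparous hearts and 87.0 ± 0.542% in virgin hearts. Cox7a1 made up 67.2 ± 1.71% against Cox7a2 in multiparous hearts and 66.5 ± 2.91% in virgin hearts. The form of subunit 4 known from lung, Cox4i2, held 0.613 ± 0.0699% against Cox4i1 in multiparous hearts and 0.605 ± 0.0962% in virgin hearts (SD, n = 8 each). For the c-ring, Atp5g1 held 52.2 ± 1.55% against Atp5g3 in multiparous hearts and 53.0 ± 1.55% in virgin hearts, and Atp5g2 held 24.0 ± 1.07% against Atp5g3 in multiparous hearts and 23.2 ± 0.866% in virgin hearts. The Atp5g1 share depends on the length used, since its principal transcripts run from 596 to 4715 bases. Per kilobase of all exons it had 110.9 CPM against 269.4 for Atp5g3. In raw counts it lay below Atp5g3, with mean log2 ratios of -0.13 in multiparous and -0.09 in virgin hearts. Of the 50-base stretches of the 4715-base Atp5g1 transcript 11.6% recur in other annotated genes, 366 in all. These are 542 stretches, and Gm10039 shares 335 of the 4666. The part shared by the 596-base transcript was not computed, so the Atp5g1 count is uncertain. The differences of the 6 log2 count ratios between groups ran from -0.04 for Atp5g1 to Atp5g3 to 0.06 for Atp5g2 to Atp5g3. Exact two-sided permutation tests over 12870 assignments of the 16 hearts gave p from 0.138 to 0.903, and from 0.830 to 0.903 after Benjamini-Hochberg adjustment over the 6 ratios. The groups overlapped for each ratio.

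**Figure D3:**
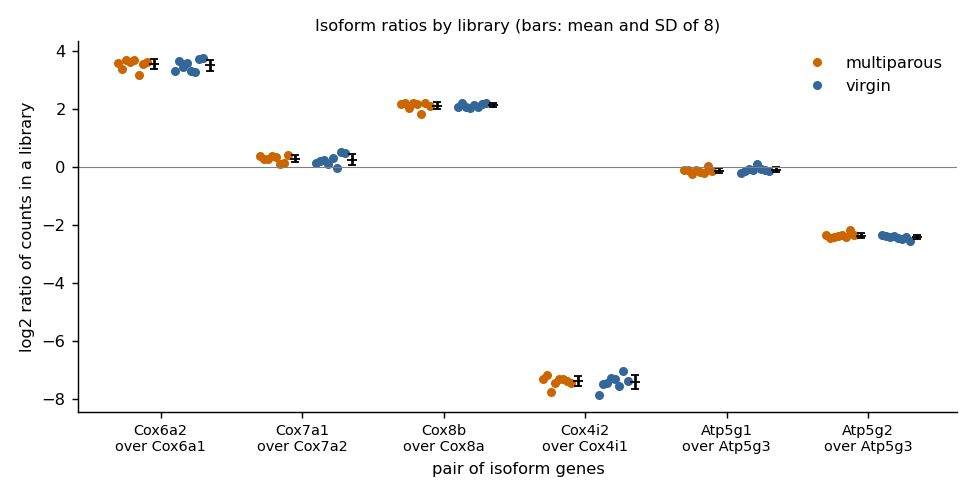
Log2 ratio of counts between forms of the same subunit in each library, multiparous at the left and virgin at the right of each pair, with mean and SD (bars, n = 8). Cox6a2 to Cox6a1 averaged 3.54 in multiparous hearts and 3.50 in virgin hearts, Cox4i2 to Cox4i1 -7.39 in multiparous and -7.41 in virgin hearts, and groups overlap in all 6 pairs.

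The 41 genes tended to be high or low together within a heart, in both groups. Taking for each library the median log2 deviation of the 41 genes from their virgin means, the multiparous hearts had a lowest, median and highest value of -0.15, -0.07 and 0.06, and the virgin hearts of -0.14, 0.02 and 0.10. Multiparous 3 was the only multiparous heart above 0, with only 4 genes below their virgin means, and multiparous 7 was low for 38 genes. Among the virgin hearts, virgin 8 had 1 gene below the virgin mean, while virgin 1 had 40 and virgin 7 had 37. Virgin 1 and 7 thus lay as low as the lowest multiparous hearts. The low hearts included those with the highest TMM factors, virgin 1 (1.065), multiparous 6 (1.061) and multiparous 7 (1.039). Hearts with the lowest factors, virgin 6 (0.944), virgin 2 (0.954) and multiparous 3 (0.964), were high. Factors of virgin 7 (1.006) and virgin 8 (0.979) lay nearer to 1. The part of the scaling in this shared movement was not tested. The lowest value of a gene came most often from multiparous 6 (14 genes), virgin 7 (10) and multiparous 7 (8), and the highest most often from virgin 8 (14) and virgin 2 and 6 (8 each). Virgin 8 was also the library with by far the most counts. Without it, 33 of the 41 genes had a lower mean in the multiparous hearts (50.8% of all genes in that fit) and the median log2 fold change was -0.04.

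**Figure D4:**
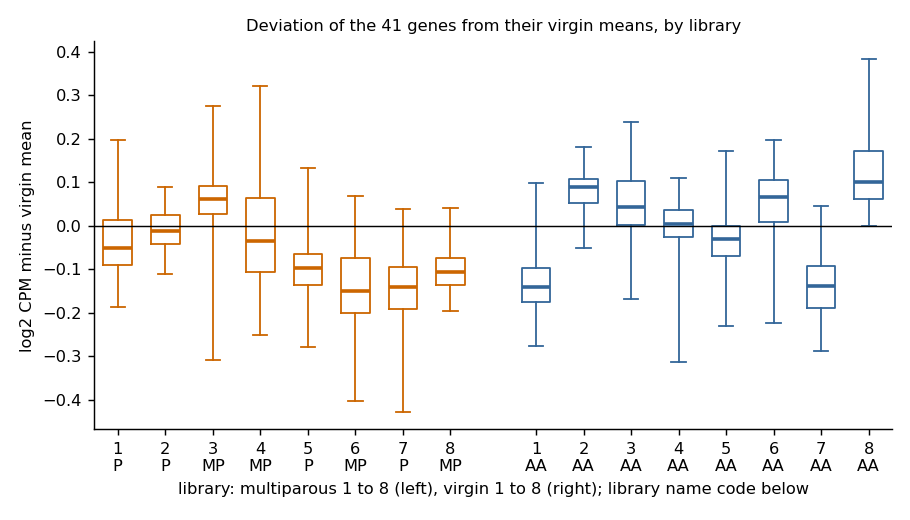
Log2 deviation of the 41 genes from their mean in virgin hearts, by library (thick line the median, box the quartiles, whiskers the lowest and highest gene), multiparous hearts left and virgin hearts right with the code of the library name below. Medians run from -0.15 to 0.06 in multiparous hearts and from -0.14 to 0.10 in virgin hearts.

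The number of members with a lower mean differed with the scaling of the libraries, and so did the share over all genes. With TMM scaling the median log2 fold change was -0.06 for the members and -0.003 for all genes. With library totals alone, 30 of the 41 genes had a lower mean in the multiparous hearts, against 36.4% of all genes, and the median was -0.03 while that of all genes was 0.03. Scaled on the counts of 12 cardiomyocyte markers, 30 were lower, against 39.4% of all genes, with medians of -0.03 for the members and 0.02 for all genes. The members summed to 19.9% to 24.7% of the cardiomyocyte marker sum in multiparous hearts and to 21.2% to 25.4% in virgin hearts, so these shares overlapped as well. The same 10 genes turned to a higher mean under both of these scalings: Uqcr10, Cycs, Cox7a1, Cox8a, Cox8b, Atp5c1, Atp5e, Atp5g2, Atp5j and Atp5j2. None of complex II did.

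**Figure D5:**
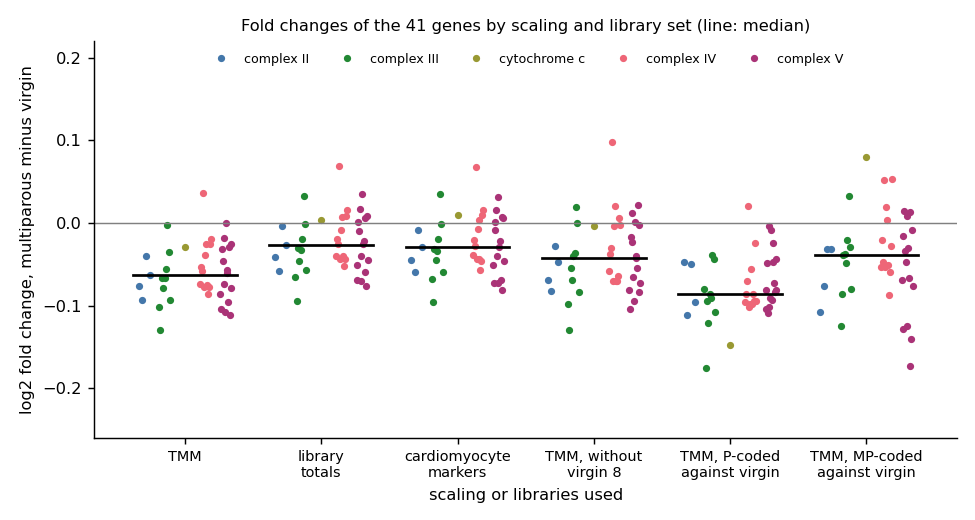
Log2 fold changes, multiparous minus virgin, of the 41 genes (points, by complex) under 3 scalings, without virgin 8, and for the P-coded and the MP-coded multiparous hearts alone, with the median of the 41 genes (line). The median is below 0 in each column, from -0.09 for the P-coded hearts to -0.03 with library totals.

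Split by library code, the members had lower means in 40 of 41 cases in the P-coded hearts (53.0% of all genes, median -0.09) and in 32 of 41 in the MP-coded hearts (51.0% of all genes, median -0.04), both set against the same 8 virgin hearts. None was called in edgeR, with a lowest adjusted p of 0.381 for P-coded hearts, where 0.521% of all genes were called, and of 0.599 for MP-coded hearts, where 0% were. MP-coded against P-coded hearts, 31 of 41 members had a higher mean (50.6% of all genes), the 41 log2 fold changes had a median of 0.03, and no member was called (lowest adjusted p 0.464 in edgeR, 0.121% of all genes called). Without multiparous 3 that median was -0.005.

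Partner genes of the complexes were counted in the same fit, and none of them passed either. Of the 37 nuclear subunits of complex I, which passes electrons from NADH to ubiquinone, 35 had a lower mean in multiparous hearts, with a median log2 fold change of -0.07. Ndufa10, an accessory subunit, averaged 507.3 ± 26.8 CPM in multiparous hearts and 554.6 ± 36.6 CPM in virgin hearts (adjusted p = 0.417), and Ndufa9, another, 276.2 ± 16.9 CPM in multiparous hearts and 297.5 ± 17.1 CPM in virgin hearts (adjusted p = 0.527). Of 23 tested complex IV assembly factors, 21 were lower, with a median of -0.05. Cox19, a copper-handling factor, averaged 26.9 ± 1.43 CPM in multiparous hearts and 32.3 ± 3.52 CPM in virgin hearts, a log2 fold change of -0.26 with an adjusted p of 0.118. Cox10, which makes the heme of complex IV, averaged 70.9 ± 3.94 CPM in multiparous hearts and 78.6 ± 5.80 CPM in virgin hearts (adjusted p = 0.315). All 8 multiparous hearts lay below the virgin mean for both of these genes. The numbers of genes with a lower mean were 3 of 4 for complex II assembly, 6 of 7 for complex III assembly, 4 of 5 for complex V assembly and 3 of 3 for supercomplex factors. They were 7 of 7 for nucleotide and phosphate carriers, 9 of 9 for cristae organisation, 10 of 13 for ubiquinone synthesis and 6 of 8 for other isoforms and accessory subunits. The median log2 fold changes of these 8 lists ran from -0.07 to -0.02. The genes with the smallest p in these lists included Sdhaf2, a complex II assembly factor, with 43.7 ± 1.01 CPM in multiparous hearts against 45.5 ± 1.86 CPM in virgin hearts, and Lyrm7, a chaperone of the Rieske protein, with 21.3 ± 1.82 CPM in multiparous hearts against 23.2 ± 1.74 CPM in virgin hearts. For the synthase, Atpaf1, which assembles the catalytic head, averaged 61.8 ± 3.61 CPM in multiparous hearts and 66.2 ± 2.47 CPM in virgin hearts. Ckmt2, the mitochondrial creatine kinase of muscle, averaged 1454 ± 153 CPM in multiparous hearts and 1613 ± 160 CPM in virgin hearts. Apoo, of the cristae junctions, averaged 93.5 ± 5.30 CPM in multiparous hearts and 101.1 ± 5.88 CPM in virgin hearts, and Coq10a, a ubiquinone-binding protein, 163.0 ± 13.5 CPM in multiparous hearts and 179.1 ± 14.3 CPM in virgin hearts. Adjusted p-values of these 6 genes ran from 0.442 to 0.650. Second in the same lists were Sdhaf3, Uqcc1, Atpaf2, Slc25a3 (the phosphate carrier), Apool and Pdss2, with log2 fold changes between -0.11 and -0.07. Among the other isoforms and accessory subunits the smallest p was that of Ndufa4, a subunit first assigned to complex I and now counted with complex IV, with 303.2 ± 17.0 CPM in multiparous hearts against 322.5 ± 22.4 CPM in virgin hearts (adjusted p = 0.663). Usmg5, a small accessory subunit of the synthase, came second, with 207.2 ± 17.5 CPM in multiparous hearts against 215.2 ± 15.3 CPM in virgin hearts (adjusted p = 0.848). The supercomplex factors Higd1a and Cox7a2l, of which C57BL/6 mice are known to carry a shortened form of the second, had -0.07 and -0.03.

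Factors that control respiratory genes, or that transcribe or copy mitochondrial DNA, showed no common direction: 12 of 23 had a lower and 11 a higher mean, with a median log2 fold change of -0.008. Yy1 averaged 52.3 ± 2.06 CPM in multiparous hearts and 49.4 ± 1.88 CPM in virgin hearts (0.08 higher in log2, adjusted p = 0.498). Polrmt, the mitochondrial RNA polymerase, averaged 31.1 ± 2.46 CPM in multiparous hearts and 33.7 ± 2.00 CPM in virgin hearts (adjusted p = 0.565). All 13 mitochondrially encoded genes are listed at a count of 0 in every library, so the mitochondrial subunits of complexes III, IV and V could not be set beside the nuclear ones.

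The left ventricular label was checked against cell type markers. Cardiomyocyte markers summed to 88429 to 107459 CPM in multiparous hearts and to 81385 to 114084 CPM in virgin hearts, and 11 of 12 had a lower mean in the multiparous hearts (median log2 fold change -0.05). Fibroblast markers had a higher mean for 6 of 8 genes (median 0.15, sums of 724 to 1001 CPM in multiparous hearts and 664 to 839 CPM in virgin hearts), and macrophage markers for 8 of 8 (median 0.12, sums of 277 to 514 CPM in multiparous hearts and 276 to 523 CPM in virgin hearts). Kidney tubule markers, which a ventricle should lack, were lower for 10 of 10 genes (median -3.46), with sums of 0.583 to 14.7 CPM in multiparous hearts and 3.59 to 95.1 CPM in virgin hearts. Atrial markers, which bear on the ventricular label, were split 2 and 2 among 4 tested genes (median 0.28), with sums of 33.8 to 119.9 CPM in multiparous hearts and 26.2 to 105.4 CPM in virgin hearts. Among them Nppa, the atrial natriuretic peptide gene, averaged 66.6 ± 25.95 CPM in multiparous hearts and 39.5 ± 26.45 CPM in virgin hearts (adjusted p = 0.511). Red cell markers had a higher mean for 3 of 3 tested genes (median 0.76), with sums of 9.06 to 110.8 CPM in multiparous hearts and 7.89 to 70.9 CPM in virgin hearts. Adipocyte markers had a higher mean for 2 of 2 tested genes (median 0.63), with sums of 0.588 to 6.95 CPM in multiparous hearts and 0.219 to 8.90 CPM in virgin hearts. Skeletal muscle markers had a higher mean for 2 of 3 tested genes (median 0.03) and summed to 1.51 to 2.51 CPM in multiparous hearts and 1.28 to 2.36 CPM in virgin hearts. Brown adipocyte markers were split 2 and 2 among 4 tested genes (median -0.08), with sums of 113.9 to 138.0 CPM in multiparous hearts and 111.8 to 142.9 CPM in virgin hearts. Endothelial markers had a higher mean for 5 of 8 genes (median 0.02), with sums of 1080 to 1274 CPM in multiparous hearts and 1085 to 1309 CPM in virgin hearts. Smooth muscle and pericyte markers had a higher mean for 4 of 8 (median -0.11), with sums of 1628 to 1908 CPM in multiparous hearts and 1296 to 1834 CPM in virgin hearts.

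The 2 genes with the smallest p in each marker list had these log2 fold changes. They were -0.15 for both Tnnc1 and Myl3 of cardiomyocytes, 0.45 for Pi16 and 0.19 for Dcn of fibroblasts, 0.15 for Csf1r and 0.13 for Mrc1 of macrophages, and -3.84 for Cltrn and -3.18 for Slc22a8 of kidney tubules. They were 0.75 for Nppa and 0.59 for Bmp10 of the atria, 0.84 for Hbb-bs and 0.76 for Alas2 of red cells, and 0.70 for Plin1 and 0.57 for Cfd of adipocytes. In the skeletal muscle list they were -0.14 for Mylpf and 0.03 for Atp2a1, and in the brown adipocyte list -0.21 for Prdm16 and -0.38 for Dio2. Endothelial Tek had 0.12 and Emcn -0.09, while Cnn1 and Abcc9 of the smooth muscle and pericyte list had -0.53 and 0.15. Abcc9 averaged 743.9 ± 50.5 CPM in multiparous hearts and 668.5 ± 76.4 CPM in virgin hearts, a large part of that list's sum. Whether its counts come from smooth muscle and pericytes was not tested. None of these marker genes was called, with a lowest adjusted p of 0.0745, for kidney tubule genes. At an unadjusted p under 0.05 in edgeR, 10 of 10 kidney tubule genes were lower, against 4.09% of all genes tested. The gene lists were chosen with earlier results of these data known, so this count is no independent evidence of a difference. The median of the summed levels of the kidney tubule genes was 3.66 CPM in multiparous hearts and 43.5 CPM in virgin hearts. Cltrn averaged 0.092 ± 0.086 CPM in multiparous hearts and 1.31 ± 1.12 CPM in virgin hearts. Slc22a8 averaged 0.088 ± 0.083 CPM in multiparous hearts and 0.82 ± 0.65 CPM in virgin hearts. Both had a lowest multiparous value of 0. In multiparous libraries 3 counts equal 0.051 to 0.087 CPM, so the sizes of these 2 fold changes are uncertain. The part of any of these cell types in the lower means of the subunit genes was not tested.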

How the data were processed

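RNA sequencing libraries of 8 multiparous and 8 virgin mouse left ventricles were analysed. The authors deposited raw counts per gene, 1 file per library. Per the submitters' processing notes, the build was GRCm38.p6. The same notes name STAR 2.7.11b, HTSeq 0.11.1, SAMtools 1.19.2, Trim Galore 0.6.10, cutadapt 4.8, bcl2fastq 2.20 and FastQC 0.12.1. Neither the annotation release nor the strand setting is given in these sources. Gene counts were 34560606 to 58890976 per library and 228325238 in virgin 8, so counting error was small beside the spread between hearts. Reads not assigned to a gene for any reason (26.5% to 33.1% of each library) were left out. Those that aligned outside annotated genes were 8.4% to 12.2% of each library.

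Counts were tested with edgeR 4.0.16 (R 4.3.3), using TMM factors, genes kept by filterByExpr and a quasi-likelihood F-test of the parity groups, with Benjamini-Hochberg adjustment over 17813 genes at 0.05. The fit was tested on simulated data. CPM values are scaled to library size with the TMM factors, and log2 fold changes are multiparous minus virgin. Isoform ratios were tested by exact permutation. Alternatives were DESeq2 1.42.0, limma voom 3.58.1, other factors and filters, a replicate block, each library code alone, and leaving out each library. Identifiers were matched to GENCODE M21 (97.95% of 55487). Replicate numbers came from the labels and did not pair libraries. No 2 libraries of a group agreed within counting noise (lowest chi-square per degree of freedom 9.85 over 56 pairs).

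The members, gene lists, tests and alternatives were chosen with earlier results of these data known. Full values are given by rule for the 2 members with the smallest p and the member with the smallest difference in each complex, for Cycs, for any member with a higher mean or called, and for isoform pairs. Of each list of partner or marker genes, counts, the median and the 2 genes with the smallest p are given, and for marker lists also the range of summed levels.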

Additional observations from a re-analysis of the deposited data

Results flagged for a closer look

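In 6 of 94 groups of 8 values tested, 1 heart stood apart from the other 7 by the share of the group's range that its gap to the nearest heart took, and chance alone gives about 1 in 20. Multiparous 3 was highest of the multiparous hearts for Uqcrc2, at 804.6 CPM, and for Atp5a1, at 3565 CPM. Virgin 8, the most deeply sequenced library, was highest of the virgin hearts for Cox6a2, at 439.2 CPM, and for Cox7a1, at 277.6 CPM. The log2 ratio of Atp5g1 to Atp5g3 was highest in virgin 5, at 0.11. The log2 ratio of Atp5g2 to Atp5g3 was highest in multiparous 7 among the multiparous hearts, at -2.18. Without multiparous 3 the lowest adjusted p of any member was 0.240 in edgeR.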

How the results depend on the processing

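In 26 alternative fits no member passed an adjusted p of 0.05, with a lowest value of 0.204 without virgin 1. Of the 41 genes, 28 kept their direction in all of them, and the median stayed below 0. With the replicate block, 38 members were lower with a median of -0.06, and 33 genes of all tested were called. The numbers did not pair the hearts: same-number correlations ran from -0.144 to 0.181, and none of the 8 multiparous hearts correlated best with the virgin heart of its own number. Genes called over all tested genes numbered 2, against 0 with library totals, 0 on cardiomyocyte markers, 130 with DESeq2, 56 without a filter, 1 at a mean of at least 10 CPM, 97 for P-coded and 0 for MP-coded hearts, and 0 to 55 with 1 library left out. Between MP-coded and P-coded hearts 22 were called, 295 with DESeq2 and 3 to 197 with 1 library left out.

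Means turned higher as follows, in log2. With library totals and on cardiomyocyte markers these were Uqcr10 (0.033, 0.035), Cycs (0.0039, 0.0091), Cox7a1 (0.0070, 0.0038), Cox8b (0.0088, 0.0093), Cox8a (0.016, 0.016), Atp5c1 (0.0015, 0.00080), Atp5e (0.017, 0.016), Atp5g2 (0.035, 0.031), Atp5j2 (0.0055, 0.0074) and Atp5j (0.0080, 0.0064). In MP-coded hearts they were Uqcr10 (0.032), Cycs (0.080), Cox6c (0.020), Cox7a1 (0.0032), Cox8a (0.053), Atp5d (0.014), Atp5g2 (0.0080) and Atp5j2 (0.013). Uqcr10 was 0.0046 with voom, 0.0049 at 10 CPM and 0.0022 with the block, and Atp5g2 0.00033, 0.0070 and 0.00075. Leaving out 1 library gave ranges of -0.049 to 0.017 for Atp5e, -0.019 to 0.016 for Atp5g2, -0.067 to 0.022 for Atp5j2, -0.096 to 0.0087 for Cox6c, -0.047 to 0.020 for Cox7a1, -0.050 to 0.015 for Cox8a, -0.049 to 0.0084 for Cox8b, -0.079 to 0.020 for Cycs, -0.041 to 0.023 for Uqcr10 and -0.059 to 0.00051 for Uqcr11. Isoform ratios turned for Cox8b to Cox8a (0.071) and Atp5g1 to Atp5g3 (0.0059) in P-coded hearts and for Cox4i2 to Cox4i1 (-0.076) in MP-coded hearts. With 1 library left out, the difference of the ratio ran from -0.036 to 0.080 for Cox4i2 to Cox4i1 and from -0.022 to 0.033 for Cox8b to Cox8a. The cause was not tested.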
